A study of Mus musculus with 5 samples.

Results

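C3G, encoded by Rapgef1, is a guanine nucleotide exchange factor, a protein that loads small GTPases with GTP. Its best known substrates are the Rap GTPases, which act on integrin and cadherin adhesion when they hold GTP. The adapters CRK and CRKL bind C3G through their SH3 domains and bring it to tyrosine-phosphorylated scaffolds such as p130Cas, the product of Bcar1. In several cell types this pathway links attachment and receptor signals to adhesion.

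The genes described are Rapgef1, the adapter genes Crk and Crkl, the scaffold gene Bcar1, the 5 Rap genes Rap1a, Rap1b, Rap2a, Rap2b and Rap2c, and Rap1gds1, whose product SmgGDS binds Rap and related GTPases before they reach the membrane. They were taken by gene symbol, and the list was drawn up with earlier results of these data known. These 10 genes have 36 annotated transcripts among the 142647 transcripts of the table, and are 10 of 55147 gene symbols.

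Total RNA was sequenced from E14Tg2a mouse embryonic stem cells kept on gelatin in serum with LIF, in 3 WT samples and 2 C3G KO samples. WT is the untargeted parent line. In C3G KO cells a cassette with a puromycin resistance gene under the EF1α promoter was knocked in between guides in introns 1 and 4 of Rapgef1, replacing exons 2 to 4, and resistant colonies were picked as clones. No group received another treatment. The labels do not name the clone behind either C3G KO sample, and clones that received the vectors without guides were not analysed here, so the cassette, the selection, the cloning and the loss of exons 2 to 4 cannot be told apart. The paper calls the sequenced samples of both groups independent, without saying in what way. Nothing in the labels says that the samples of a group came from separate cultures, so the p-values measure only the spread between these samples.

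The table holds TPM, a measure in which reads are divided by transcript length and then brought to a fixed sum per sample. It carries no depth, so counting errors cannot be computed. Protein-coding genes held 28.8% to 31.8% of the TPM in WT, but 18.6% and 26% in C3G KO, while small non-coding RNA genes held 56.1% to 61.9% in WT and 73.2% and 62.3% in C3G KO. On TPM as deposited the tested genes had a median log2 fold change of -0.55. Levels were therefore also divided by median-of-ratios factors (1.10 to 1.34 in WT, 0.619 and 0.906 in C3G KO), which put that median at 0.0052. These scaled levels are the main measure, and the deposited values stand beside them. The ES cell markers were present, with a summed level of 2240 to 2360 TPM in WT and 1775 and 2319 TPM in C3G KO. Most of that sum was Dppa5a, with 1307 to 1431 TPM in WT and 1252 and 1552 TPM in C3G KO. Of the 9 markers Dppa5a was higher after scaling but not as deposited (adjusted p = 0.0307 after scaling). Klf4 was lower (-0.51, adjusted p = 0.0348), and 7, Pou5f1, Nanog, Sox2 and Esrrb among them, did not pass. The study itself reported higher Klf4 and Esrrb in C3G null cells, by qPCR and as protein. For Klf4 that is the opposite direction, and Esrrb had a scaled log2 fold change of 0.12 here (adjusted p = 0.211). The reason for the difference was not tested. The smooth muscle and fibroblast markers summed to 62.6 to 67.5 TPM in WT and to 4.38 and 7.88 TPM in C3G KO, with 6 of 6 tested lower and none of the 8 at 0 in every sample. The simple epithelial keratins Krt7, Krt8, Krt18 and Krt19 summed to 218 to 221 TPM in WT and to 13.7 and 17.7 TPM in C3G KO, with 4 of 4 lower. The part of these marker differences in the results below was not tested, and in such bulk samples fewer cells of a type and less RNA per cell cannot be told apart.

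The replaced stretch of Rapgef1 is shown first because it defines the knockout. Rapgef1 (ENSMUSG00000039844) lies on the plus strand of chromosome 2 of GRCm38, from 29619720 to 29740978. Numbered as in transcript Rapgef1-203, exons 2 to 4 lie at chr2:29679133-29679269, chr2:29679737-29679850 and chr2:29686105-29686283, a stretch of 7151 bases with 430 bases of exon. All 430 are coding and they are not a multiple of 3, with a remainder of 1, and in Rapgef1-201, which skips exon 3, the remaining 316 coding bases also leave a remainder of 1. The capitals in exon 2 mark the match to the reverse primer with which the study amplified the 5′ part of the transcript, TCTCAGGAATCTTCGACACCTC, and its forward primer AAAGCAGACTCTCAGCGTTCT runs across the junction of exons 1 and 2.
Rapgef1 exon 2: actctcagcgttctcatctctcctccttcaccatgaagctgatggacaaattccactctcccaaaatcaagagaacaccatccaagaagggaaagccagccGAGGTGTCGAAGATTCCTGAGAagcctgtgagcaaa
Rapgef1 exon 3: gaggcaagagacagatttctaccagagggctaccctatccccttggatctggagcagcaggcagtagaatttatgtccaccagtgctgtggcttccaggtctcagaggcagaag
Rapgef1 exon 4: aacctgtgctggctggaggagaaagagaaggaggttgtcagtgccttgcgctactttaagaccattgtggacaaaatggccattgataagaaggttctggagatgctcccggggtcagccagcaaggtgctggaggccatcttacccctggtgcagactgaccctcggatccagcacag

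Rapgef1 transcripts were lower in C3G KO but far from absent. Its deposited level was 11.56 TPM in WT 1, 10.31 TPM in WT 2 and 9.64 TPM in WT 3, against 3.92 TPM in C3G KO 1 and 5.55 TPM in C3G KO 2. After scaling the levels were 8.66, 8.45 and 8.73 in WT and 6.34 and 6.13 in C3G KO, so that both C3G KO samples lay below all WT samples on either scale and the group means stood at a ratio of 0.723. The log2 fold change of scaled levels was -0.41 (SE 0.059, adjusted p = 0.00444) and that of deposited TPM was -1.02 (adjusted p = 0.000304). Of all tested genes, 11.5% had a lower scaled log2 fold change than Rapgef1. The call was lost when each sample was corrected for transcript length and GC content together (log2 fold change -0.15, adjusted p = 0.149). It was kept with either correction alone, at -0.25 (adjusted p = 0.0258) for length and -0.35 (adjusted p = 0.00752) for GC content.

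The estimated fall differed among the annotated Rapgef1 transcripts, a contrast that was not tested. Of these transcripts, 4 contain exons of the replaced region and 3 lie wholly downstream of it. Rapgef1-203, the most abundant, with 24 exons and 1086 codons, had 5.67, 4.78 and 4.23 TPM in WT and 1.97 and 2.92 TPM in C3G KO. Its scaled log2 fold change was -0.25 and did not pass (adjusted p = 0.159). Rapgef1-201, with 26 exons and 1218 codons, had 2.67, 1.65 and 1.64 TPM in WT and 0.22 and 0.29 TPM in C3G KO. That transcript fell by 0.96 on the scaled log2 scale (SE 0.13, adjusted p = 0.0223), and its scaled mean in C3G KO was 0.209 of that in WT. The settings in which its call was lost included leaving out WT 1 (adjusted p = 0.0566), WT 2 (adjusted p = 0.0800) or WT 3. It was also lost with the replicate block and with no filter (adjusted p = 0.0605). Rapgef1-206, which starts 82.7 kb downstream of the Rapgef1-203 start, had 1.91, 2.75 and 2.85 TPM in WT and 1.42 and 1.84 TPM in C3G KO. Its scaled levels overlapped between the groups, with a log2 fold change of 0.05 that turned to -0.41 on deposited TPM, neither past the threshold. The short Rapgef1-204, a retained-intron transcript without a coding region, had 0.68 to 1.02 TPM in WT and 0.18 and 0.25 TPM in C3G KO, and its scaled change of -0.38 did not pass (adjusted p = 0.0839). Rapgef1-205 stayed under 0.5 TPM throughout, Rapgef1-202 was listed above 0 in 1 sample, and Rapgef1-207 was listed at 0 in every sample.

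Rapgef1-201 differs from Rapgef1-203 by the lack of exon 3, inside the replaced region, and by 3 added exons downstream of that region, of which the exon found in no other Rapgef1 transcript is shown here. Exon 11 of Rapgef1-201 is also in Rapgef1-202, Rapgef1-206 and Rapgef1-207, exon 12 is also in Rapgef1-202 and Rapgef1-207, and exon 13 (chr2:29720643-29720738, plus strand) is in Rapgef1-201 alone.
Rapgef1-201 exon 13: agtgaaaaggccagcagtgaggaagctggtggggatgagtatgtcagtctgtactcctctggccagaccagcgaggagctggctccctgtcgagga

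Of the TPM of Rapgef1-201 and Rapgef1-203 together, Rapgef1-201 held 32.0%, 25.7% and 27.9% in WT and 10.05% and 9.03% in C3G KO. This share was chosen after its values were seen and carries no test. The transcripts without exons of the replaced region held 27.9%, 37.6% and 39.1% of all Rapgef1 TPM in WT and 44.1% and 40.2% in C3G KO. Both C3G KO samples lay above all WT samples, by 7.29 percentage points between the group means. The exact permutation test gave p = 0.2, the smallest that 3 against 2 samples allow two-sided, and 0.229 after adjustment over 8 shares. WT 1 set much of this gap, which was 3.79 points without it. A TPM assigned to Rapgef1-201 or Rapgef1-203 in C3G KO is not a measure of exons 2 to 4. Reads from shared exons are divided among transcripts by estimation, and values per exon are not in the table.

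**Figure D1:**
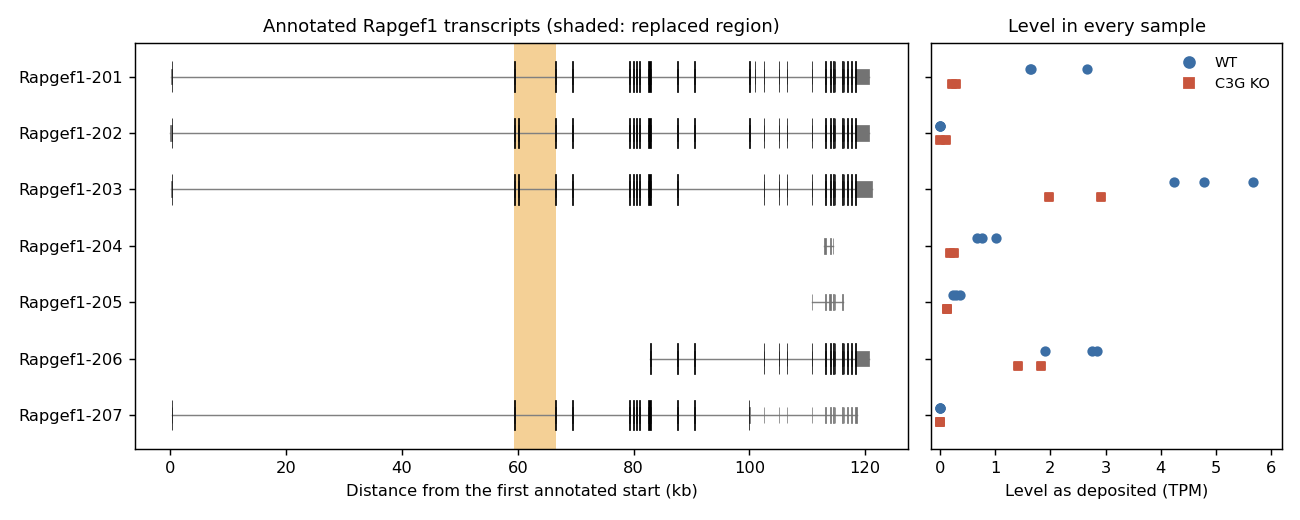
Annotated Rapgef1 transcripts against distance from the first annotated start in kb (black, coding exons; grey, non-coding exons; shaded, the replaced region), with TPM as deposited in every sample on the right (blue circles, WT; red squares, C3G KO). Rapgef1-201, Rapgef1-203, Rapgef1-204 and Rapgef1-206 were all lower in C3G KO on this scale, and Rapgef1-206, which lacks the replaced exons, had 1.42 and 1.84 TPM there.

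Across the 10 genes, all of which were tested, 5 fell after scaling and 0 rose, with limma at an adjusted p below 0.05. The background in the same fit was 16.6% of tested genes lower and 14.1% higher. An unadjusted p below 0.05 was reached by 6 of the 10 and by 5492 of the 12518 tested genes. The 5 lower genes were Rapgef1, Bcar1, Rap2a, Rap2b and Rap2c, and the median log2 fold change of the 10 was -0.19. On deposited TPM 9 of the 10 were lower, all but Rap1b, where 56.8% of tested genes were lower and 1.45% higher. Both C3G KO samples lay below all WT samples for 6 of the 10 after scaling (29.3% of tested genes) and above them for Rap1b alone (29.5%), and on deposited TPM they lay below for all 10 (75.7%). Of the 5 calls, those of Bcar1 and Rap2b held in every alternative run, that of Rapgef1 in all but the 3 that corrected for length and GC content together, and those of Rap2a and Rap2c were each lost in 12.

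**Figure D2:**
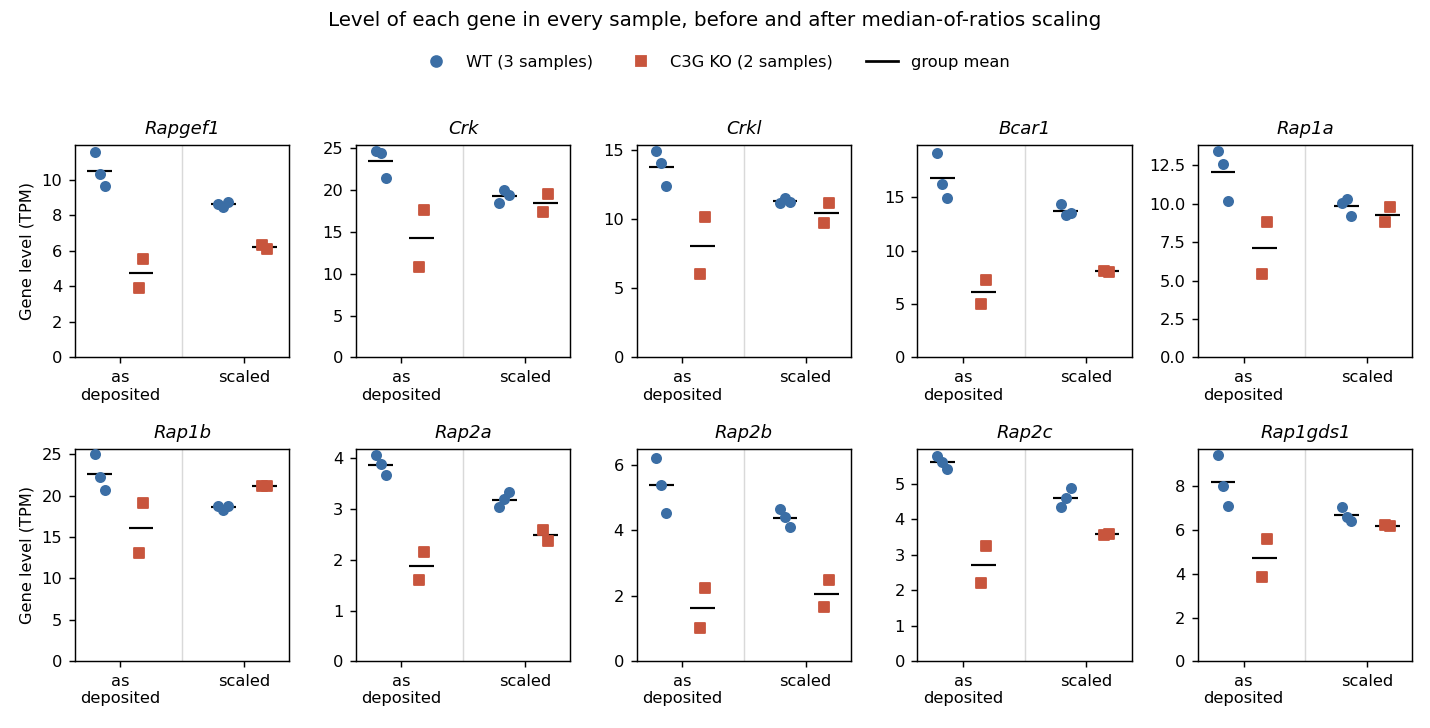
Level of each gene on deposited (left) and scaled (right) TPM in 3 WT samples (blue circles) and 2 C3G KO samples (red squares), with group means as black lines and every axis from 0. After scaling the groups do not overlap for Rapgef1, Bcar1, Rap2a, Rap2b, Rap2c, Rap1b and Rap1gds1, and Rap1b is the gene with C3G KO above WT, a direction that holds on scaled levels but not on deposited TPM.

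**Figure D3:**
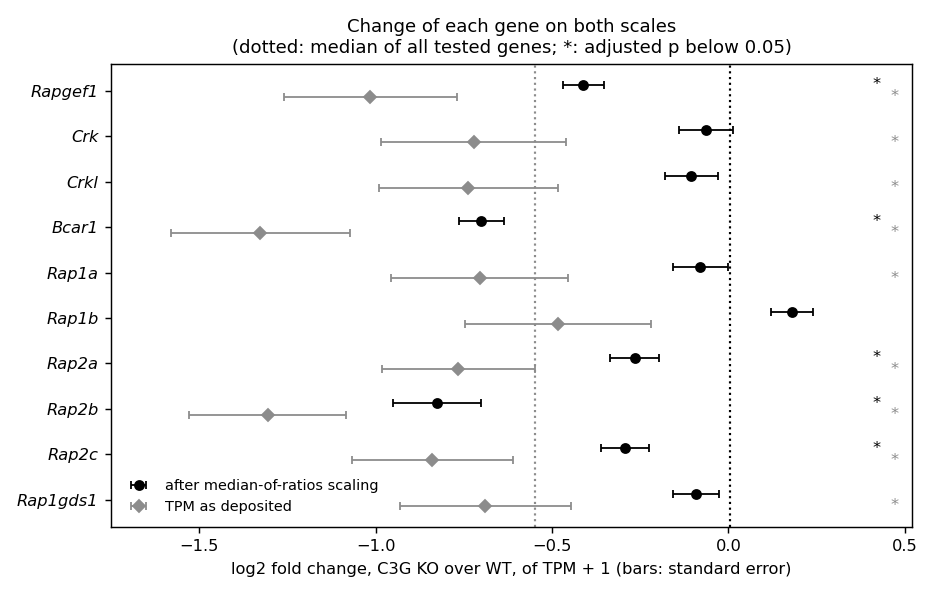
log2 fold change of TPM + 1 between C3G KO and WT with its standard error, after scaling (black circles) and on deposited TPM (grey diamonds), with the median of all tested genes as a dotted line of the same shade. Bcar1 and Rap2b lie farthest below the all-gene median on both scales, and stars mark an adjusted p below 0.05.

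The adapter genes showed no difference that passed after median-of-ratios scaling. Crk (ENSMUSG00000017776, chromosome 11, 75679259 to 75706908, plus strand) encodes an adapter with an SH2 domain and SH3 domains. It had 24.62, 24.43 and 21.4 TPM in WT and 10.77 and 17.63 TPM in C3G KO. After scaling it had 18.4, 20.03 and 19.4 in WT and 17.4 and 19.5 in C3G KO, and the groups overlapped. The scaled log2 fold change was -0.06 (95% interval -0.25 to 0.12, adjusted p = 0.566). Crkl (ENSMUSG00000006134, chromosome 16), which encodes the related adapter CRKL, had 14.87, 14 and 12.37 TPM in WT and 6.01 and 10.1 TPM in C3G KO. Its scaled levels of 11.1, 11.5 and 11.2 in WT and 9.71 and 11.1 in C3G KO also overlapped, with a log2 fold change of -0.11 (95% interval -0.29 to 0.076, adjusted p = 0.325). On deposited TPM both passed, at -0.72 (adjusted p = 0.0159) for Crk and -0.74 (adjusted p = 0.0110) for Crkl, against the all-gene median of -0.55. Both also passed when TPM were scaled to the protein-coding total, at -0.27 (adjusted p = 0.0477) for Crk and -0.31 (adjusted p = 0.0435) for Crkl.

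The balance of Crk products shifted little. Crk-201 has 304 codons and encodes CrkII, and Crk-203 has 204 codons and encodes CrkI, which lacks the C-terminal SH3 domain. Crk-203 held 13.01%, 13.5% and 13.3% of the TPM of this pair in WT and 12.7% and 12.4% in C3G KO. The groups did not overlap, and C3G KO shares were lower by 0.762 percentage points (exact permutation p = 0.2, adjusted 0.229). Crk held 62.3%, 63.6% and 63.4% of the summed Crk and Crkl TPM in WT and 64.2% and 63.6% in C3G KO, and the means differed by 0.785 points (exact permutation p = 0.2, adjusted 0.229). The minor transcripts Crk-202 and Crk-205 had 0.41 to 1.33 TPM in WT and 0.33 to 1.37 TPM in C3G KO, with overlapping ranges. Crkl-201 carried almost all Crkl TPM, from 12.16 to 14.57 TPM in WT.

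The scaffold gene Bcar1 showed a larger difference than the adapters. Bcar1 (ENSMUSG00000031955, chromosome 8, minus strand) encodes p130Cas, a docking protein whose substrate domain is phosphorylated by Src family kinases and then binds CRK. It had 19.16, 16.24 and 14.95 TPM in WT and 5.02 and 7.26 TPM in C3G KO. Scaled, it had 14.4, 13.3 and 13.5 in WT and 8.11 and 8.01 in C3G KO, a ratio of 0.587 with no overlap. The gene fell by 0.70 on the scaled log2 scale (SE 0.063, adjusted p = 0.000961) and by 1.33 on deposited TPM (adjusted p = 2.97e-06). The smallest fall in any alternative was 0.48, with the replicate block and the length and GC correction.

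Bcar1 has a pair of coding transcripts, Bcar1-201 and Bcar1-203, each of 874 codons, which start from different exons. Bcar1-203, from the inner start, had 6.99, 5.99 and 8.41 TPM in WT and 1.37 and 1.61 TPM in C3G KO. It fell by 1.19 on the scaled log2 scale (SE 0.19, adjusted p = 0.0299). Bcar1-201, from the outer start, had 9.68, 8.47 and 5.04 TPM in WT and 2.76 and 4.48 TPM in C3G KO, and its scaled change of -0.33 did not pass (adjusted p = 0.379). The retained-intron Bcar1-202 had 1.5 to 2.49 TPM in WT and 0.89 and 1.17 TPM in C3G KO, with a scaled change of -0.11. Of Bcar1-201 and Bcar1-203 together, Bcar1-203 held 41.9%, 41.4% and 62.5% in WT and 33.2% and 26.4% in C3G KO, a share chosen after its values were seen and not tested. WT 3 stood apart from the other WT samples here, and leaving it out kept the call of Bcar1-203 while leaving out any other sample did not.

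Since these starts differ, the promoter sequence at each is shown, from 250 bases before to 50 after the start, read along the minus strand from RefSeq on GRCm38.p6, with each GGGCGG or its complement (the GC box that Sp1 family factors can bind) in capitals.
Bcar1 outer start, chr8:111743800-111744099: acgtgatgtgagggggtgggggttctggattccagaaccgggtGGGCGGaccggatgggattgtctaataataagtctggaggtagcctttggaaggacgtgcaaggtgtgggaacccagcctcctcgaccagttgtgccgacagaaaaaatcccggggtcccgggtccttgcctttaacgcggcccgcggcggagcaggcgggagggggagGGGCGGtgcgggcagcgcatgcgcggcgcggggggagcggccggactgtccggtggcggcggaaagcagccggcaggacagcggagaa
Bcar1 inner start, chr8:111732087-111732386: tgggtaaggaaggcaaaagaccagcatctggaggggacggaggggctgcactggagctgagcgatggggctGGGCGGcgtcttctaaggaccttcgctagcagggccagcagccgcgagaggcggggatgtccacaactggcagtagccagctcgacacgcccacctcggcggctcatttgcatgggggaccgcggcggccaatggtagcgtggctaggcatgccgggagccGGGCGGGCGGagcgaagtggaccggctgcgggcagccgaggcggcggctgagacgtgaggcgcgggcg

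GGGCGG was found on either strand in both windows, in 8 of the 9 promoters listed for 8 of the 10 genes, and in 35.7% of 32851 promoters of the same length. TATAAA was in 0 of the 9, against 13.6% of all, and CCAAT was in 4 of the 9, against 37.4%, including the inner but not the outer Bcar1 window. These are matches of letters and not measured binding.

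The Rap genes fall into the Rap1 group, which acts on integrins and cell junctions, and the Rap2 group, whose best known effectors include the kinases TNIK, MINK1 and MAP4K4. The opening 60 bases of the coding sequences are set out to show how far apart genes of the family are at the level of reads, with capitals at each base that differs from Rap1a (GENCODE transcripts, plus sense of the mRNA).
Rap1a: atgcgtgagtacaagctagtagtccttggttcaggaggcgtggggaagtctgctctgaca
Rap1b: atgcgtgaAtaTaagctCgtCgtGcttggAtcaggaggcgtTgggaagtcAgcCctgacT
Rap2a: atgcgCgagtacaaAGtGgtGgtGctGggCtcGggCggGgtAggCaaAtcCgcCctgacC
Rap2b: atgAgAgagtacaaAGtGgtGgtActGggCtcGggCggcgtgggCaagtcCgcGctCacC
Rap2c: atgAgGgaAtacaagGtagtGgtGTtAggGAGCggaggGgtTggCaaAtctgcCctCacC

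Over the whole coding sequence Rap1a and Rap1b were 81.7% identical and Rap2a and Rap2b 82.9%, while a Rap1 and a Rap2 gene shared 59.8% to 62.5%. No stretch of 50 bases in the main Rap1b transcript occurred in a transcript of another gene, and the 5 Rap genes shared none with each other. In Rap1a, 9.46% of such stretches also occurred in Gm9392 or the pseudogene Rap1a-ps2, which were listed at 0.39 to 1.02 and 0.00 to 0.05 TPM in WT. In Rap2b it was 57.3%, shared with B430305J03Rik and Gm37696, which are annotated over its exon on the opposite strand. Whether the counting used strand is not given in the sources used here, so reads of Rap2b and those genes may not be told apart.

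Of the Rap1 genes, neither differed past the threshold after scaling. Rap1b (ENSMUSG00000052681, chromosome 10, minus strand) was the most abundant Rap gene. It had 25, 22.24 and 20.68 TPM in WT and 13.1 and 19.15 TPM in C3G KO. Scaled, it had 18.7, 18.2 and 18.7 in WT and 21.2 and 21.1 in C3G KO, where both samples lay above all WT samples. The scaled log2 fold change was 0.18 (95% interval 0.035 to 0.32 before adjustment, adjusted p = 0.0655), and it turned to -0.48 on deposited TPM (adjusted p = 0.0951) and to -0.03 when TPM were scaled to the protein-coding total. With a correction for transcript length alone it passed (0.25, adjusted p = 0.0189). Rap1a (ENSMUSG00000068798, chromosome 3, minus strand) had 13.39, 12.58 and 10.14 TPM in WT and 5.43 and 8.83 TPM in C3G KO. Its scaled levels of 10.03, 10.3 and 9.19 in WT and 8.78 and 9.75 in C3G KO overlapped, with a log2 fold change of -0.08 (95% interval -0.27 to 0.11, adjusted p = 0.479).

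Within Rap1a, the full-length Rap1a-201 (184 codons) had 5.75, 5.59 and 5.2 TPM in WT and 3.2 and 4.93 TPM in C3G KO. Rap1a-202 (118 codons) had 2.31, 2.58 and 1.48 TPM in WT and 0.47 and 1.1 TPM in C3G KO. On scaled levels Rap1a-201 was 0.19 higher (adjusted p = 0.248) and Rap1a-202 was 0.46 lower (adjusted p = 0.188), neither past the threshold, and Rap1a-201 was 0.38 lower on deposited TPM. Rap1a held 34.9%, 36.1% and 32.9% of the summed Rap1 TPM in WT and 29.3% and 31.6% in C3G KO. Both C3G KO shares lay below all WT shares and were lower by 4.21 percentage points on average (exact permutation p = 0.2, adjusted 0.229).

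The Rap2 genes were all lower in C3G KO on both scales. Rap2b (ENSMUSG00000036894, chromosome 3, plus strand), which is a gene of 1 exon, had 6.21, 5.37 and 4.52 TPM in WT and 1.02 and 2.24 TPM in C3G KO. Scaled, it had 4.65, 4.40 and 4.09 in WT and 1.65 and 2.47 in C3G KO. It fell by 0.83 on the scaled log2 scale (SE 0.12, adjusted p = 0.00533), to a ratio of 0.470, and 3.31% of tested genes had a lower value. The overlapping B430305J03Rik had 1.29, 1.22 and 0.36 TPM in WT and 0.32 and 0.36 TPM in C3G KO, and its part in the Rap2b difference was not tested.

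Rap2c (ENSMUSG00000050029, chromosome X, minus strand) had 5.79, 5.61 and 5.4 TPM in WT and 2.2 and 3.25 TPM in C3G KO. Its scaled levels were 4.34, 4.6 and 4.89 in WT and 3.56 and 3.59 in C3G KO, without overlap, and the gene fell by 0.29 (SE 0.069, adjusted p = 0.0232). Rap2a (ENSMUSG00000051615, chromosome 14, plus strand) had 4.05, 3.89 and 3.67 TPM in WT and 1.6 and 2.15 TPM in C3G KO. Its scaled levels were 3.03, 3.19 and 3.32 in WT and 2.59 and 2.37 in C3G KO, also without overlap, and it fell by 0.27 (SE 0.070, adjusted p = 0.0334). These changes were smaller than that of Rap2b, and the call was lost whichever sample was left out for Rap2a, and for Rap2c whichever was left out except WT 1. Chromosome 14 carried many lower genes, 249 of the 440 others tested (56.6%, against 16.6% of all tested genes). Within 5 Mb of Rap2a 5 of 21 were lower and 5 higher, and within 1 Mb 2 of 4 were lower and 0 higher, with a median log2 fold change of -0.47. The part of this in the Rap2a difference was not tested.

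The shares of the 3 Rap2 genes differed between the groups without passing a test that cannot reach the threshold. Rap2b held 38.7%, 36.1% and 33.3% of the Rap2 TPM in WT and 21.2% and 29.3% in C3G KO, where its shares were lower by 10.8 percentage points on average. Without C3G KO 1 the gap was -6.70 points and without C3G KO 2 it was -14.9. Rap2c went from 36.1%, 37.7% and 39.7% to 45.6% and 42.5%, and Rap2a from 25.2%, 26.2% and 27% to 33.2% and 28.1%. None of the 3 shares overlapped between the groups, and each exact permutation test gave p = 0.2, adjusted 0.229. The Rap2a gap, 4.54 points, was 2.01 without C3G KO 1 and 7.06 without C3G KO 2. Of all Rap TPM, Rap1a and Rap1b together held 70.5%, 70.1% and 69.4% in WT and 79.4% and 78.6% in C3G KO, a share chosen after its values were seen. Such shares do not depend on how a sample is scaled.

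**Figure D4:**
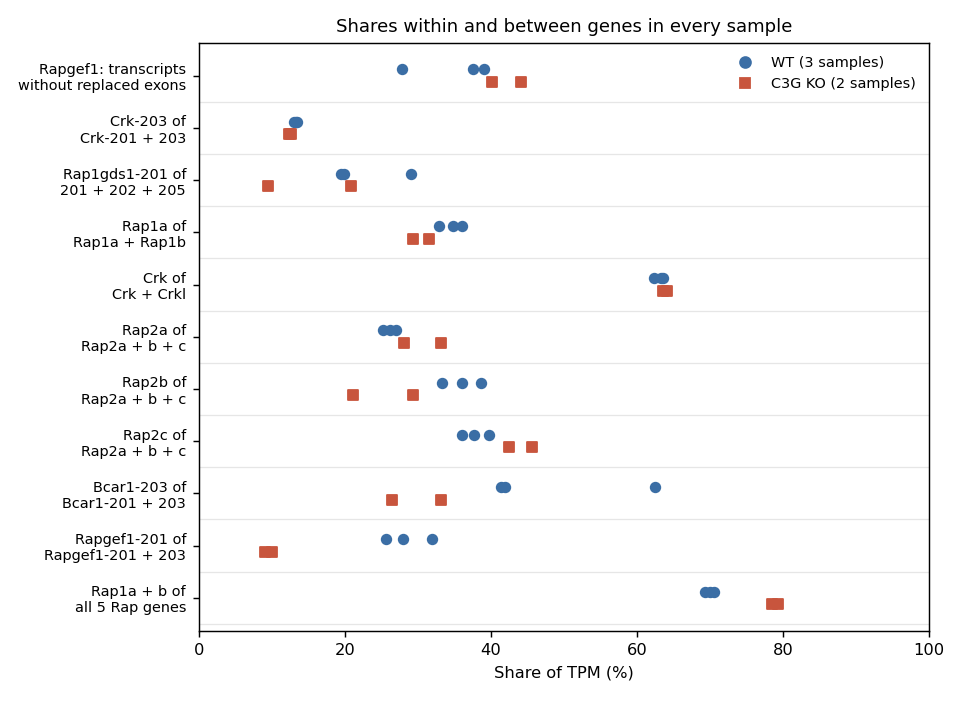
Share of TPM in percent for transcripts within a gene and for genes within a group, in 3 WT samples (blue circles) and 2 C3G KO samples (red squares). The groups do not overlap for any share except Rap1gds1-201, but for Crk of Crk and Crkl, WT 2 and C3G KO 2 both round to 63.6%. The lowest 3 shares in the plot were chosen after their values were seen.

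Rap1gds1 (ENSMUSG00000028149, chromosome 3, minus strand) encodes SmgGDS, an armadillo-repeat protein that binds newly made GTPases with a polybasic tail. It had 9.39, 8 and 7.06 TPM in WT and 3.85 and 5.57 TPM in C3G KO. Scaled, it had 7.03, 6.56 and 6.40 in WT and 6.22 and 6.15 in C3G KO. Both C3G KO samples lay below all WT samples, but the log2 fold change of -0.09 did not pass (95% interval -0.25 to 0.067, adjusted p = 0.326). The longer form Rap1gds1-202 (607 codons) had 3.63, 3.69 and 2.41 TPM in WT and 1.95 and 2.62 TPM in C3G KO, and the shorter form Rap1gds1-201 (558 codons) had 1.29, 1.18 and 1.63 TPM in WT and 0.27 and 0.92 TPM in C3G KO. Rap1gds1-201 held 19.9%, 19.4% and 29.1% of the TPM of Rap1gds1-201, Rap1gds1-202 and Rap1gds1-205 in WT and 9.44% and 20.8% in C3G KO. These ranges overlapped (exact permutation p = 0.6, adjusted 0.6).

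At transcript level 24 of the 36 transcripts were tested and 4 were listed at 0 in every sample. Of the 24, 3 fell after scaling and 0 rose, where 3.28% of 36968 tested transcripts were lower and 2.01% higher. They were Rapgef1-201, Bcar1-203 and Rap2b-201. On deposited TPM 8 of the 24 were lower, against 13.4% of all tested transcripts lower and 0.262% higher. Leaving out any 1 sample left 0 or 1 of the 3 calls.

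As TPM are per length, levels can be set side by side between genes. In WT the order of mean deposited TPM was Crk at 23.5 ± 1.81 (SD, n = 3), Rap1b at 22.6 ± 2.19, Bcar1 at 16.8 ± 2.16, Crkl at 13.7 ± 1.27, Rap1a at 12.04 ± 1.69, Rapgef1 at 10.5 ± 0.974, Rap1gds1 at 8.15 ± 1.17, Rap2c at 5.6 ± 0.195, Rap2b at 5.37 ± 0.845 and Rap2a at 3.87 ± 0.191. The neighbours Crk and Rap1b, Crkl and Rap1a, Rap1a and Rapgef1, and Rap2c and Rap2b had overlapping WT ranges. Within every WT sample, however, Crkl lay above Rap1a and Rap1a above Rapgef1. The order within the other pairs varied between WT samples. In C3G KO the means were highest for Rap1b at 16.1 ± 4.28 (SD, n = 2) and Crk at 14.2 ± 4.85. Their ranges overlapped, but Rap1b lay above Crk within each C3G KO sample. The means were lowest for Rap2a at 1.88 ± 0.389 and Rap2b at 1.63 ± 0.863, where Rap2b was the lower in C3G KO 1 and Rap2a in C3G KO 2. Bcar1 at 6.14 ± 1.58 came after Crkl at 8.06 ± 2.89 and Rap1a at 7.13 ± 2.40. The ranges of these genes overlapped, but their order was the same within each C3G KO sample.

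The tested genes whose scaled log2 levels, centred on the WT mean, lay nearest to those of Rapgef1 over the 5 samples were Spata13, Cmtm7 and Gm13648, at Euclidean distances of 0.0263, 0.0339 and 0.0373. Of the 9 tested genes within 250 kb of Rapgef1, 3 were lower after scaling and 0 higher, where 16.6% of all tested genes were lower and 14.1% higher. Slc27a4, a fatty acid transporter gene, had a log2 fold change of -0.30 (adjusted p = 0.0230), Cercam of -0.54 (adjusted p = 0.00294) and Sptan1, which encodes alpha-spectrin, of -0.38 (adjusted p = 0.0189). The nearest tested gene downstream, Trub2 at 20.2 kb, and the nearest upstream, Med27, had 0.10 and -0.06 and did not pass. Within 5 Mb of Rapgef1, 33 of 162 tested genes (20.4%) were lower and 18 higher.

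Other genes of the pathway were counted in 6 lists with 75 genes, of which 60 were tested. After scaling 19 were lower (31.7%, against 16.6% of all tested genes) and 3 higher (5%, against 14.1%), with a median log2 fold change of -0.13. With the length and GC correction the counts were 10 lower and 6 higher, and leaving out WT 2, C3G KO 1 or C3G KO 2 gave 9, 10 and 12 lower. The 3 that rose were Rapgef4, Elmo1 and Fnta, of which Elmo1 and Fnta did not pass on deposited TPM and are named after their values were seen.

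Among the other Rap exchange factors 2 of 8 tested genes fell and 1 rose, where 16.6% of all tested genes were lower and 14.1% higher. The lists are small, and no list was tested against these shares. Rapgef4, which encodes the cyclic AMP-responsive factor EPAC2, had 0.48, 0.5 and 0.24 TPM in WT and 1.2 and 1.19 TPM in C3G KO, and rose by 0.98 on the scaled log2 scale (adjusted p = 0.00363). Its relative Rapgef3, which encodes EPAC1, had 1.28, 1.24 and 1.27 TPM in WT and 0.35 and 0.45 TPM in C3G KO, and fell by 0.41 (adjusted p = 0.0150). Both are low, so the log2 values of TPM + 1 understate their fold changes. Rapgef2, which encodes a factor with a PDZ domain, fell by 0.25 (adjusted p = 0.0332). In the list of GAPs, proteins that return GTPases to their GDP-bound state, 2 of 11 fell and 0 rose. The genes best known as Rap GAPs (Rap1gap, Sipa1, Sipa1l1, Sipa1l2, Sipa1l3 and Garnl3) were not among the 2 and ranged from -0.30 to -0.05 without passing. Arap3, which encodes a Rap-binding GAP for Arf6 and RhoA, had 2.71, 2.61 and 2.42 TPM in WT and 0.46 and 0.87 TPM in C3G KO, and fell by 0.75 (adjusted p = 0.00181). Rasa2, which encodes a GAP best known for Ras, fell by 0.38 (adjusted p = 0.0130).

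Among the Rap effectors 5 of 14 fell and 0 rose, against 16.6% lower and 14.1% higher of all tested genes. The median of the list was -0.04. Tln1, which encodes the integrin activator talin, had 34, 28.84 and 21.18 TPM in WT and 6.34 and 15.34 TPM in C3G KO, and fell by 0.73 with a wide spread (SE 0.21, adjusted p = 0.0455). Afdn, which encodes the junction protein afadin, fell by 0.45 (adjusted p = 0.00644). Among the scaffolds and kinases around CRK 7 of 18 fell and 1 rose. Efs, which encodes a relative of p130Cas, had 7.33, 7.15 and 6.45 TPM in WT and 0.96 and 1.49 TPM in C3G KO, and fell by 1.37 (adjusted p = 0.000144). Dock5, which encodes an exchange factor for Rac, had 5.69, 5.05 and 4.51 TPM in WT and 0.83 and 1.14 TPM in C3G KO, and fell by 1.17 (adjusted p = 0.000232). Both lie on chromosome 14, where 84 of 99 tested genes within 5 Mb of Efs and 57 of 62 within 5 Mb of Dock5 were also lower, and the part of that stretch in their fall was not tested.

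Among the other GTPases on which C3G is known to act 2 of 4 fell and 0 rose, against 16.6% lower and 14.1% higher of all tested genes. Rras2, which encodes TC21, fell by 0.52 (adjusted p = 0.00460) and Rras by 0.38 (adjusted p = 0.0305). Of the 5 genes for enzymes that attach or trim the lipid tail of Rap and its relatives, 1 fell and 1 rose. Pggt1b, the beta subunit of the enzyme that attaches the geranylgeranyl tail to Rap1, fell by 0.31 (adjusted p = 0.0253).

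**Figure D5:**
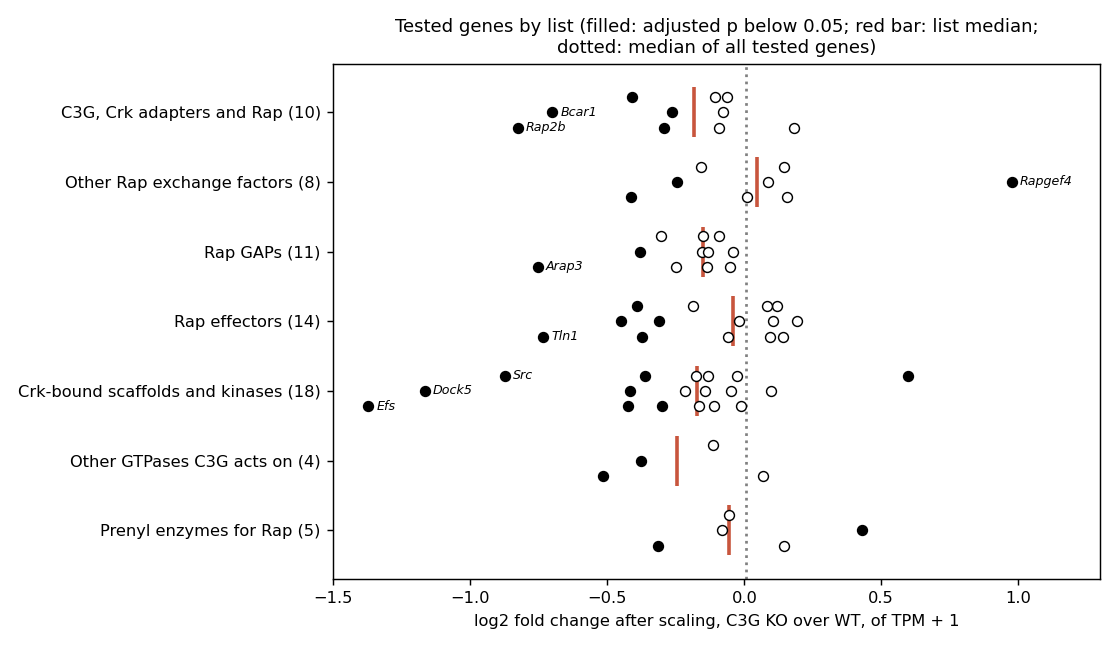
Scaled log2 fold change of TPM + 1 for the tested genes of each list, C3G KO over WT, with filled points at an adjusted p below 0.05, a red bar at the list's median and a dotted line at the median of all tested genes. Bcar1 and Rap2b lie at the lower end of their group, and Efs and Dock5, both on chromosome 14, have the lowest values among all lists.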

How the data were processed

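RNA of 3 WT and 2 C3G KO samples was analysed from the table of TPM that the authors deposited. The submitters' processing notes name bcl2fastq 2.20, FastQC 0.11.7, STAR 2.5.1b and RSEM 1.2.31, and the build is GRCm38. Of 142647 transcripts, 141524 matched GENCODE M21 and 1123 did not, and TPM were summed per gene symbol. The study tested counts with DESeq2, but counts were not used here, so limma 3.58.1 (R 4.3.3, mean-variance trend, two-sided, Benjamini-Hochberg) was fitted to log2(TPM + 1) of the 12518 genes that reached 1 TPM in 2 or more samples, after median-of-ratios scaling and on TPM as deposited. Transcripts needed a TPM of 0.5 in 2 samples. Fold changes on this scale understate those of low genes. On deposited TPM the prior degrees of freedom were infinite, so those p-values do not use a gene's own spread.

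Shares were compared by exact permutation tests. The procedure was tried on simulated data with planted changes larger than the scaled change of any member gene. The simulation held no length or GC bias. It therefore does not bear on changes of the size seen in the members or on those corrections. The members and lists were chosen with earlier results of these data known. Named were the members, their transcripts with a mean TPM of 0.5, up to 2 rises and 2 falls a list on both scales, neighbours of Rapgef1 within 250 kb and the 3 nearest patterns. Of the 4 trophectoderm markers 2 were tested. Cdx2 was lower, with 0.84 to 1.1 TPM in WT and 0.03 and 0.11 TPM in C3G KO, and Eomes did not pass. Of the 6 primitive endoderm markers only Dab2 was tested. It was higher after scaling but not as deposited, with 1.9 to 2.24 TPM in WT and 1.55 and 3.82 TPM in C3G KO. Alternatives covered scaling, pseudocount, filter, trend, single samples, replicate block, length and GC content. Proteins were not analysed here. Drawings used Python 3.11.15, pandas 2.3.3 and matplotlib 3.10.9.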

Additional observations from a re-analysis of the deposited data

How the results depend on the processing

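The scaling decided the counts. With TPM as deposited 9 of the 10 genes, 45 pathway genes and 7109 of all tested genes were lower, and 0, 1 and 181 were higher, so that higher genes were 2.48% of all calls in place of 45.8%. With TPM scaled to the protein-coding total 3732 genes were lower and 707 higher (15.9% of calls), with 31 pathway genes and 7 of the 10 genes lower, as Crk and Crkl gained a call. Of the 10 genes 3 were lower with quantile normalization, with no filter and with the replicate block, 3 with a length correction alone, and 2 with the length and GC correction, with both corrections as separate trends and with the replicate block and both corrections. A rise (Rap1b, by 0.25 and 0.22) passed with the length correction alone and with separate trends, 1 gene each. The corrections by separate trends, length alone and GC content alone were chosen after seeing the data. The causes were not tested. Rapgef1 did not pass with length and GC corrected together (-0.15, adjusted p = 0.149), as separate trends (-0.19, adjusted p = 0.0547) or with the block and both (-0.12, adjusted p = 0.344).

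Leaving out single samples gave 3 to 4 lower member genes and 0 higher, 1323 to 1844 lower and 890 to 1559 higher genes in all, 9 to 17 lower and 2 to 3 higher pathway genes, 0 to 1 lower transcripts, a Rapgef1 log2 fold change of -0.43 to -0.39 and a gap in its downstream share of 3.79 to 9.41 points. With 1 C3G KO sample left, it was assumed to vary as the WT samples do. A filter of 5 TPM, which tests fewer genes, gave 1145 lower genes and 12 lower and 1 higher pathway genes. Pathway genes were 10 lower and 6 higher with the length and GC correction, 11 and 7 with separate trends, 5 higher with length alone, and 7 lower with the block and both corrections. Of the transcripts 8 were lower as deposited and 0 with no filter or with the block. The labels do not say whether samples of the same replicate number were handled together. The library name of C3G KO 2 carries the number 3, but the block and the correlations used its replicate number, 2. Samples of the same replicate number deviated with correlations of -0.18 and 0.18. The 2 C3G KO samples deviate from their mean as mirror images, so these values cannot show whether the numbers are pairs.

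No gene or transcript called on scaled levels changed sign. On deposited TPM the signs that turned were those of Rap1b (-0.48), Rap1b-201 (-0.49), Rap1a-201 (-0.38), Rapgef1-206 (-0.41), Crk-202 (-0.27), Crk-205 (-0.18) and Rap1gds1-202 (-0.36). Rap1b was -0.032 with the protein-coding total. Leaving out single samples, Crk ranged from -0.14 to 0.013 (without C3G KO 1), and it was 0.034 with the length correction, and Crkl was 0.047 with that correction, 0.013 with separate trends and 0.0081 with the block and both corrections. Crk-205 was -0.071 with the block, and without single samples it ranged from -0.18 to 0.37, Crk-202 from -0.19 to 0.30 and Rapgef1-206 from -0.11 to 0.17. Depth is not in the table, so transcripts near 1 TPM carry an unknown counting error.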
